A study of Rattus norvegicus with 6 samples.

Results

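The genes described here encode collagens, other matrix proteins, the enzymes that crosslink or cleave them, and receptors and markers of fibroblasts. They were measured in renal cortex from male rats of a Sprague-Dawley stock. The list holds 37 genes. A gene was represented by the probe of highest mean log2 signal over all 6 arrays among the non-control probes whose accession maps to its symbol. Of the 37 genes, 31 had a probe and 28 were bright enough to be tested, out of 31193 tested transcripts on the array.

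The study compared 3 rats given corn oil, the vehicle, with 3 rats given carbon tetrachloride at 100 mg/kg/day, both for 4 weeks. Carbon tetrachloride is a solvent, made reactive by cytochrome P450 enzymes, that is widely used to produce liver fibrosis in rodents. All rats were of the Crl:CD(SD) stock, were bought at 5 weeks of age and ate a basal diet, and each gave 1 single-colour array. Carbon tetrachloride is the compound in the title, labels and treatment protocol, whereas benzyl acetate appears in the text on the design.

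Fibroblasts and pericytes between the tubules, and mesangial cells in the glomerulus, make most of the interstitial and mesangial matrix of the kidney, while epithelial and endothelial cells add basement membrane. Collagens I, III and V form the fibrils of the interstitium, collagen IV forms the network of basement membranes, and fibronectin and smaller proteins link these to cells. Lysyl oxidases crosslink the fibres, matrix metalloproteinases cleave them and TIMPs restrain the metalloproteinases. In kidney fibrosis, transforming growth factor beta and platelet-derived growth factors drive fibroblasts to make more of this matrix.

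Promoter sequences were at hand for 20 of the 37 genes (RefSeq, GRCr8). Of these, 3 stretches are shown because they belong to genes that the results turn on. Col1a2 stands for the fibril-forming collagens and Vim for the genes with higher values after carbon tetrachloride. The shared stretch of Col4a1 and Col4a2 is shown because Col4a2 had no matched probe. Each is written 5′ to 3′ on the gene's own strand, ending just before the annotated start, with capitals for matches to 4 short motifs on either strand. The motif of the TATA box was searched as the letters TATAAA. That of the CCAAT box was searched by its name's letters, that of the GC box as GGGCGG, and that of the AP-1 site as TGANTCA.
Col1a2, chr4:33518307-33518556, plus strand: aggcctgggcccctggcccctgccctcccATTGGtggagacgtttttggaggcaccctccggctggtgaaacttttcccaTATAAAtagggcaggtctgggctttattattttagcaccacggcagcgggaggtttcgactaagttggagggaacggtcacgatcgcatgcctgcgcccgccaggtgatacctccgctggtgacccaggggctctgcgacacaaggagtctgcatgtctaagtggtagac
Vim, chr17:81577011-81577260, plus strand: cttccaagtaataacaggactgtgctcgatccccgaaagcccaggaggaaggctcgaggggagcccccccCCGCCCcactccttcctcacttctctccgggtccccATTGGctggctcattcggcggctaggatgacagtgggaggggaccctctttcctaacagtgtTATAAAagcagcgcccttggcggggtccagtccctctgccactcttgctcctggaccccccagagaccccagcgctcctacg
Col4a1 and Col4a2, chr16:84885521-84885596, the bases between both starts on the plus strand of Col4a1: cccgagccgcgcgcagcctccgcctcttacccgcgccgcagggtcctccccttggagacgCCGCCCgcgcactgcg

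The window of Col1a2 held a TATA box whose first base lies 170 bases before the annotated start and a CCAAT box on the other strand at 221 bases. Vim had a TATA box at 82 bases, and a CCAAT box at 144 bases and a GC box at 180 bases, both on the other strand. Col4a1 and Col4a2 lie head to head, with starts 77 bases apart, and the 76 bases between them hold a GC box. Over the 250 bases before the start, 4 of the 20 genes had a TATA box (20% against 12.9% of 33469 promoters), 7 a CCAAT box (35% against 34.0%), 9 a GC box (45% against 30.5%) and 2 an AP-1 site (10% against 6.34%). These matches are a description of the letters in the window, and the shares were not compared by a test.

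Proximal tubule markers were read as markers of kidney tissue. No markers of the medulla were set beside them, so the label of cortex itself was not tested. All 12 proximal tubule markers were tested, and their summed signal, in units of each array's 75th percentile of signal, ran from 2173 to 2319 on the corn oil arrays and from 2284 to 2421 on the carbon tetrachloride arrays. Of 61537 probes other than controls, 68.5% to 72.1% gave signal well above background, depending on the array. Slide 1 held 5 arrays, and slide 2 held only the third treated rat. By the position numbers in the file headers, the corn oil arrays lay in row 1 of slide 1 and its treated arrays in row 2. Position on slide 1 and treatment therefore cannot be told apart. Among the lists of other cell types, that of T cells had 12 of 12 markers with lower means after carbon tetrachloride, 11 of them without overlap between groups and 0 past the adjusted threshold in limma. Over all transcripts, 5.27% were lower without overlap. Of the 12 markers, Cd5, Cd3e and Cd2 entered the test through the corn oil group alone. Of the other 9, which were well above background on all 6 arrays, 9 were lower and 8 did not overlap. Its summed signal was 2.83 to 3.39 on corn oil arrays and 1.90 to 2.09 on carbon tetrachloride arrays. Of the 9 markers well above background on all 6 arrays, the smallest p were those of Cd8b at -0.98 ± 0.09, Cd247 at -0.79 ± 0.08 and Cd3g at -1.01 ± 0.15. On 0 of the treated arrays was Cd5 well above background, and it was at least 1.73-fold lower there, in a direction that the filter in part set. For this bound, the treated value on each array was the lowest signal well above background, or the probe's own where higher. Whether this has any part in the values of the matrix genes was not tested. In whole cortex, fewer cells of a type and less RNA per cell cannot be told apart.

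The question put to these genes was which of them differ in the cortex after the treatment. In limma 0 of the 28 genes had an adjusted p under 0.05, and the smallest adjusted p was 0.689, for Thy1. Over all transcripts 1 passed (0.00321%). Most values lay slightly lower after carbon tetrachloride: 19 of the 28 tested genes had a log2 fold change below 0 and 9 above, where 52.3% of all transcripts lay above 0. The median log2 fold change was -0.15, against 0.0077 for all transcripts. At an unadjusted p under 0.05 there were 4 of the 28 genes (14.3%), against 6.3% of all transcripts: Thy1 higher, and Thbs2, Mmp14 and Col15a1 lower. The groups did not overlap for 5 of the 28 genes (17.9%), against 12.8% of all transcripts. Of these, 2 were higher, Thy1 and Vim (7.14% against 7.54%), and 3 were lower, Thbs2, Mmp14 and Fn1 (background 5.27%). With arrays scaled to the median instead, 3 of the 28 genes had groups that did not overlap, with the mean of probes 4 and with normexp background correction 7. The difference of these shares from the background was not tested.

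The shift of the median varied with the rats included. Carbon tetrachloride replicate 1 gave the lowest of the 6 values for 16 of the 28 genes and the highest for 0, while over all transcripts it was lowest for 14.3% and highest for 16.0%. The median deviation of the 28 genes from their corn oil means was -0.34 on that array, -0.093 on replicate 2 and -0.061 on replicate 3. Corn oil replicate 3 lay at -0.15, below both of the latter, and corn oil replicates 1 and 2 at 0.087 and 0.073. The median log2 fold change was -0.019 without carbon tetrachloride replicate 1 and -0.082 without corn oil replicate 1. Leaving out any other single rat gave -0.22 to -0.15. Another list of fibroblast markers, which shares no gene with the 28, had its lowest median on the same array, at -0.28. Its median was -0.031 and -0.020 on the other treated arrays and from -0.089 to 0.10 on the corn oil arrays. Both lists were chosen with earlier results of these data known, and Twist2 of the second entered the test through the corn oil group alone. Other lists differed. T cell markers and the other glycoproteins and proteoglycans were also lowest on that array, at -1.04 and -0.13. Mesangial and pericyte markers were at 0.013 there and lowest on corn oil replicate 3, at -0.13.

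**Figure D1:**
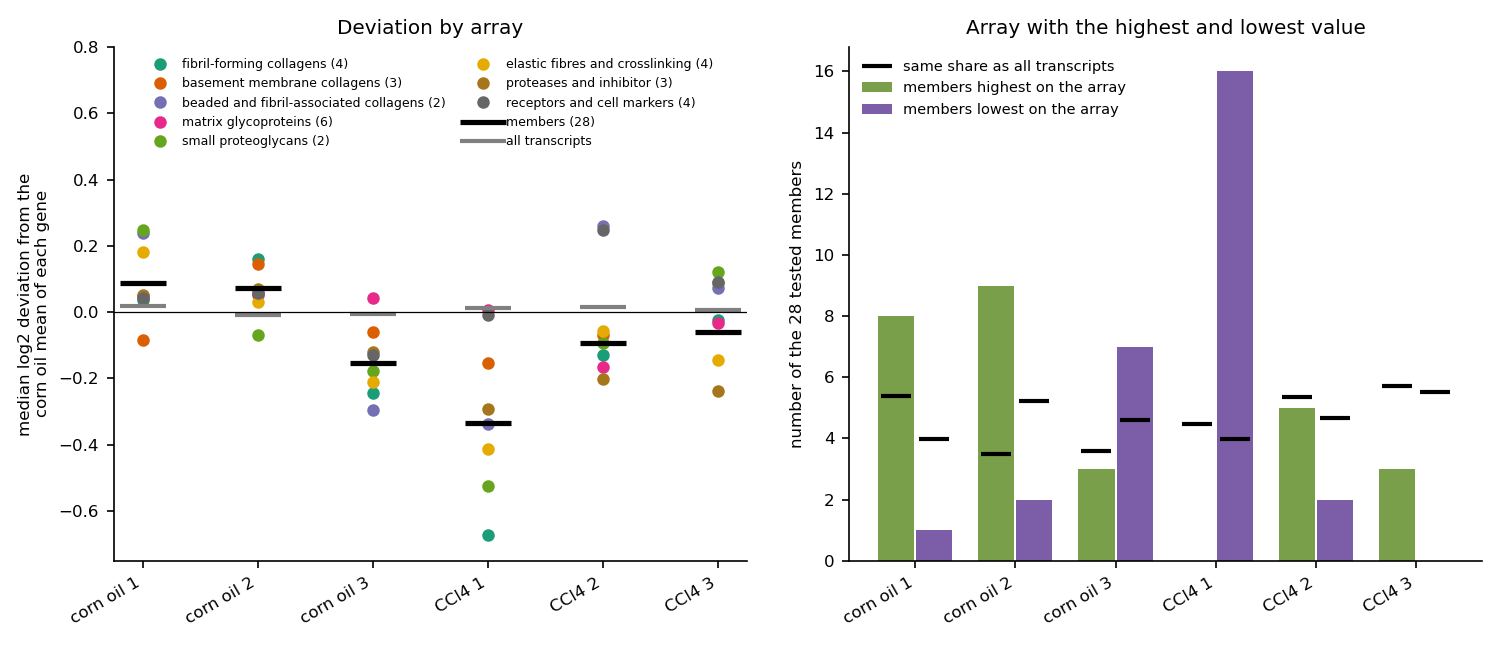
Left, the median log2 deviation of each class of genes from its corn oil means on each of the 6 arrays (CCl4, carbon tetrachloride), with black bars for the 28 tested members and grey bars for all transcripts. Right, the number of the 28 genes with their highest or lowest value on each array, with black bars where the share of all transcripts would put it. The first carbon tetrachloride array holds the lowest value of 16 genes and its members' median is -0.34.

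Among the fibril-forming collagens, 4 of 4 tested genes had lower means after carbon tetrachloride, and none had groups that did not overlap. Values here and below are log2 signal relative to each array's 75th percentile, in the order of replicates 1, 2 and 3, and changes are treated minus control with the standard error of the limma fit (n = 3 per group). Col1a1, which encodes the alpha-1 chain of collagen I, read 1.22, 1.35 and 0.81 with corn oil and 0.31, 1.01 and 1.17 with carbon tetrachloride. Only the first treated rat lay below all controls. The log2 fold change was -0.30 ± 0.26 (adjusted p = 0.855 in limma), and without that rat it was -0.036. Leaving out other single rats gave -0.47 to -0.19.

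Col1a2, which encodes the other chain of collagen I, read 4.18, 4.04 and 3.61 with corn oil and 3.18, 3.62 and 3.85 with carbon tetrachloride. As for Col1a1, the third corn oil rat was the lowest control and the first treated rat the lowest of all. Its change was -0.39 ± 0.22 (limma adjusted p = 0.825), and -0.21 without the first treated rat. Col3a1, the single chain of collagen III, read 1.79, 2.14 and 1.71 with corn oil and 1.30, 1.74 and 1.55 with carbon tetrachloride. The second treated rat lay above the lowest control, and the change was -0.35 ± 0.16 (limma adjusted p = 0.798), or -0.22 without corn oil replicate 2. Col5a1, a chain of the collagen that starts fibrils, differed by -0.07 ± 0.09, with controls between -0.46 and -0.42 and treated rats between -0.65 and -0.39. Its other tested probes, which were dimmer, gave -0.19 ± 0.10 and -0.34 ± 0.14, both with overlapping groups.

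Collagens of basement membranes and of other networks differed among themselves. Col4a1, a chain of the basement membrane network, read 3.95, 4.18 and 3.97 with corn oil and 3.88, 3.96 and 4.14 with carbon tetrachloride. The first treated rat lay below all controls and the other treated rats among them, and the change was -0.038 ± 0.10 with a 95% interval from -0.29 to 0.22. A second probe of Col4a1 gave -0.22 ± 0.11 with every treated rat below every control, and its other probes 0.074 ± 0.11 and -0.046 ± 0.16 with overlap. Col18a1, whose product carries endostatin, differed by 0.023 ± 0.09 (interval -0.20 to 0.25). Col15a1, its relative at the border of basement membrane and interstitium, read 0.45, 0.53 and 0.17 with corn oil and -0.22, -0.56 and 0.26 with carbon tetrachloride. The third treated rat, on the second slide, lay among the controls, and the change was -0.56 ± 0.22 (unadjusted p = 0.0449, adjusted p = 0.792, limma), or -0.37 without carbon tetrachloride replicate 2. A second probe of Col15a1 read -0.78, 0.91 and -1.30 with corn oil and -1.54, -1.83 and -1.31 with carbon tetrachloride. Its change was -1.17 ± 0.56, and its groups did not overlap, although the third rats of both groups had almost the same value.

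Col6a2, a chain of the beaded filaments of collagen VI, read 2.58, 2.89 and 2.33 with corn oil and 2.09, 2.42 and 2.22 with carbon tetrachloride. The second treated rat was above the third control, and the change was -0.35 ± 0.17, or -0.21 without corn oil replicate 2. Col14a1, a collagen that binds to the surface of fibrils, read -1.49, -2.16 and -2.30 with corn oil and -2.15, -1.29 and -1.46 with carbon tetrachloride. The first treated rat lay among the controls, and the change was 0.35 ± 0.30.

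The glycoproteins held the gene of second smallest p in the list. Thbs2, which encodes thrombospondin-2, a secreted inhibitor of vessel growth that also shapes collagen fibrils, read -2.73, -2.28 and -2.42 with corn oil and -3.23, -3.09 and -2.96 with carbon tetrachloride. Every treated rat lay below every control, and the change was -0.62 ± 0.14, or 1.53-fold lower (unadjusted p = 0.00469, adjusted p = 0.697, limma). With normexp background correction it was -0.40. A second probe of Thbs2 gave -0.21 ± 0.13 with overlapping groups. Its relative Thbs1, an activator of latent transforming growth factor beta, read -4.24, -5.21 and -4.44 with corn oil and -4.33, -4.67 and -4.52 with carbon tetrachloride. Its groups overlapped and the change was 0.12 ± 0.26, which turned to -0.17 without corn oil replicate 2 and was 0.32 without corn oil replicate 1.

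Tnc, which encodes tenascin-C, a glycoprotein of tissue under repair, read -4.01, -4.17 and -4.71 with corn oil and -6.65, -4.85 and -4.64 with carbon tetrachloride. The first treated array was not well above background, so Tnc entered the test through the corn oil group alone, and the other 2 treated arrays were near the third control. The change was -1.08 ± 0.55 (limma adjusted p = 0.811), the only one of the 28 past 2-fold. It was -0.44 without the first treated rat and -0.39 with normexp background correction. A second, dimmer probe of Tnc gave -0.31, but it was well above background on 1 array of each group and was not tested. Fitted changes of at least 2-fold made up 0.843% of all transcripts.

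Fn1, which encodes fibronectin, read 1.63, 1.62 and 1.68 with corn oil and 1.59, 1.35 and 1.58 with carbon tetrachloride. The treated rats lay below all controls, by 0.14 ± 0.09 in the mean, with an interval from -0.35 to 0.08 (limma adjusted p = 0.834). Without carbon tetrachloride replicate 2 the change was -0.057. Its other probes gave 0.0094 ± 0.08 and 0.30 ± 0.30, so only the brightest of its 3 probes lay below 0. Sparc, a collagen-binding protein, had a change of 0.12 ± 0.11, and Tgfbi, a matrix protein induced by transforming growth factor beta, 0.21 ± 0.34, with controls that spread from 0.78 to 2.12. Postn, a matrix protein of remodelling tissue, and Cthrc1, a marker of activated fibroblasts, were not well above background on any array and were not tested.

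**Figure D2:**
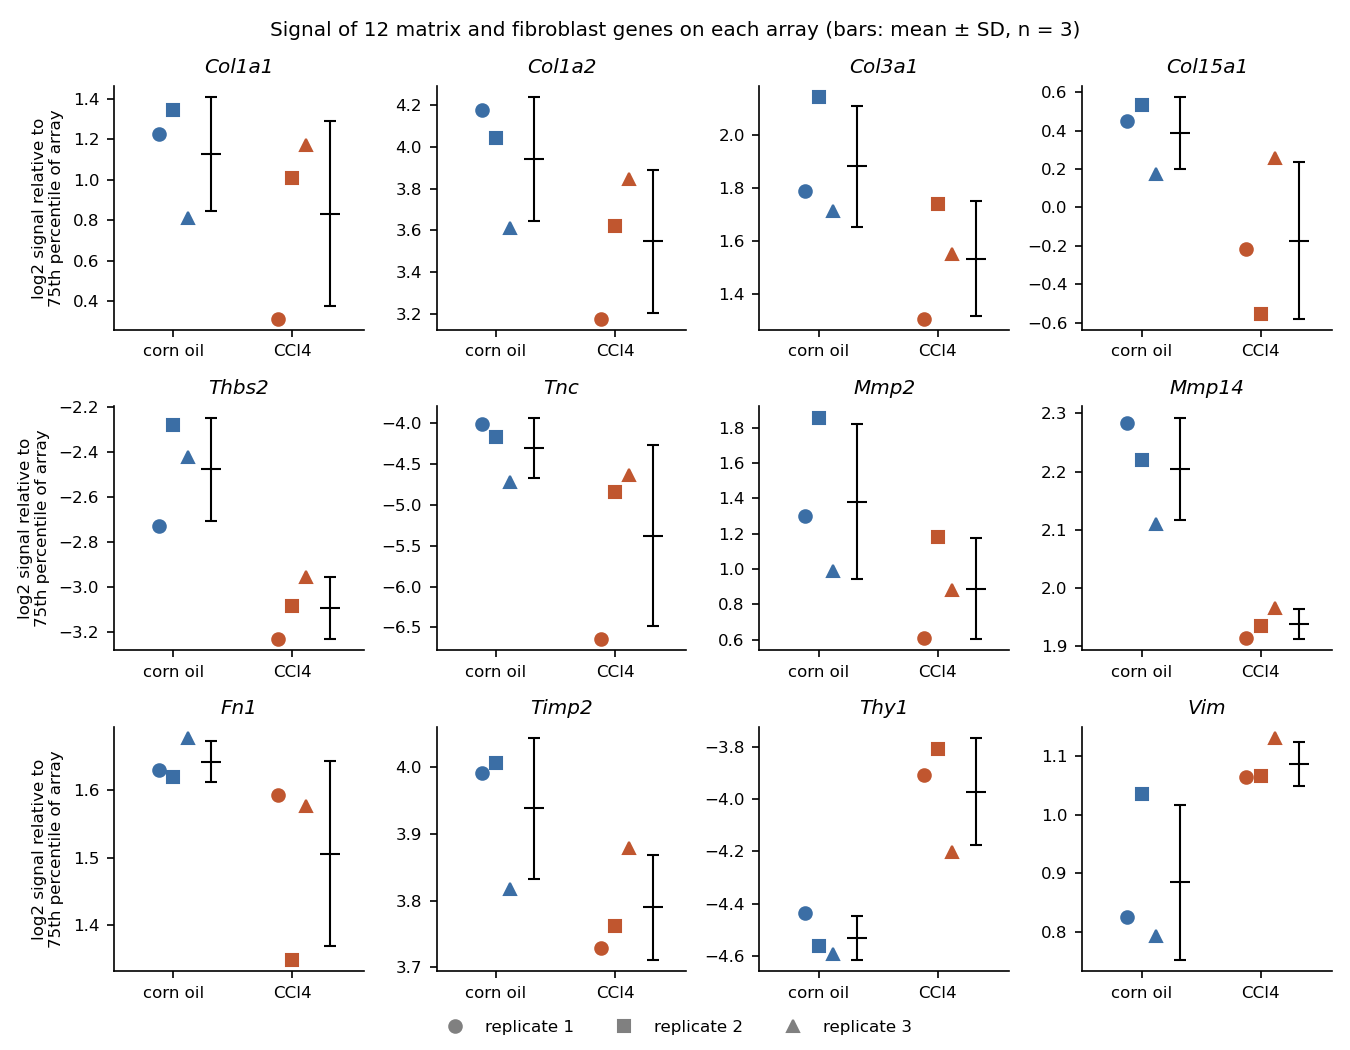
Log2 signal relative to the array's 75th percentile for 12 genes, with 1 point per rat (circle, square and triangle for replicates 1, 2 and 3) and the mean ± SD of each group beside the points (CCl4, carbon tetrachloride); each panel has its own vertical scale. Thbs2, Mmp14 and Fn1 show every treated rat below every control, Thy1 and Vim every treated rat above, and the other panels overlap.

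The small leucine-rich proteoglycans bind collagen fibrils and growth factors. Dcn, which encodes decorin, had a change of -0.18 ± 0.21, and Bgn, which encodes biglycan, -0.15 ± 0.19, each with the first treated rat as the lowest of the 6. Lum, which encodes lumican, was not well above background on any array by its single probe. Among genes of elastic fibres and crosslinking, Eln, which encodes elastin, had 0.053 ± 0.08, and Fbn1, which encodes fibrillin-1, -0.26 ± 0.30, with controls from 0.29 to 1.36. The lysyl oxidase relative Loxl1 had -0.12 ± 0.19. Loxl2, which crosslinks collagen IV, read -0.10, -0.17 and -0.48 with corn oil and -0.63, -0.53 and -0.45 with carbon tetrachloride. Its treated values lay at or below the lowest control except that of the third rat, and the change was -0.29 ± 0.12 (limma adjusted p = 0.792). Lox, Col4a2, Col5a2, Col6a1, Col6a3 and Col12a1 had no matched probe and were not analysed here.

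The proteases and their inhibitor had 3 of 3 means lower after carbon tetrachloride. Mmp14, a membrane-bound collagenase that activates pro-MMP2, read 2.28, 2.22 and 2.11 with corn oil and 1.91, 1.93 and 1.97 with carbon tetrachloride. The groups did not overlap, and the treated rats lay closer together than the controls. The change was -0.27 ± 0.07, or 1.20-fold lower, with a 95% interval from -0.44 to -0.09 (unadjusted p = 0.0104, adjusted p = 0.753, limma). A second probe of Mmp14 gave -0.21 ± 0.07, again with no overlap.

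Mmp2, the gelatinase that Mmp14 activates, read 1.30, 1.86 and 0.99 with corn oil and 0.61, 1.18 and 0.88 with carbon tetrachloride. Only the second treated rat lay above a control, and the change was -0.49 ± 0.26 (limma adjusted p = 0.813), or -0.25 without corn oil replicate 2. Its second probe gave -0.59 ± 0.23, with no overlap. Timp2, an inhibitor that also helps MMP14 to bind pro-MMP2, read 3.99, 4.01 and 3.82 with corn oil and 3.73, 3.76 and 3.88 with carbon tetrachloride. The third treated rat overlapped the controls, and the change was -0.15 ± 0.08 (limma adjusted p = 0.825).

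The receptors and markers of fibroblasts held both genes with all treated values above all controls. Thy1, a surface glycoprotein of fibroblasts that in the rat also marks mesangial cells and immature T cells, read -4.44, -4.56 and -4.59 with corn oil and -3.91, -3.81 and -4.20 with carbon tetrachloride. The change was 0.56 ± 0.12, or 1.47-fold higher, with a 95% interval from 0.27 to 0.85 (unadjusted p = 0.00351, adjusted p = 0.689, limma). With normexp background correction it was 0.27. Thy1 had 1 probe, well above background on all 6 arrays but dimmer with corn oil than that of Tnc (mean -4.53 against -4.30). Beside Thy1, the T cell markers were lower, as given above. Of 12 mesangial and pericyte markers 6 were higher and 6 lower, with a median of 0.012. Higher with no overlap were 3 of the 12, against 7.54% of all transcripts: Itga8 at 0.31 ± 0.11, Rgs5 at 0.17 ± 0.06 and Mcam at 0.25 ± 0.11. The 6 lower markers all overlapped, among them Kcnj8 at -0.36 ± 0.20, Ptn at -0.30 ± 0.23 and Abcc9 at -0.28 ± 0.20. The summed signal of the 12 markers ran from 64.2 to 73.3 with corn oil and from 59.8 to 77.5 with carbon tetrachloride. Their part in the value of Thy1 was not tested.

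Vim, which encodes vimentin, the intermediate filament of mesenchymal cells, endothelium and podocytes, read 0.83, 1.04 and 0.79 with corn oil and 1.06, 1.07 and 1.13 with carbon tetrachloride. The second control came close to the treated rats without overlap, and the change was 0.20 ± 0.09 (limma adjusted p = 0.795). Among lists of other cells that express Vim, 8 of 10 endothelial markers and 7 of 9 podocyte markers had higher means, with summed signals of 75.3 to 83.4 and 32.8 to 40.1 with corn oil and 73.3 to 81.0 and 37.7 to 43.0 with carbon tetrachloride. Every marker of both lists that had a probe was well above background on all 6 arrays, and their part in the value of Vim was not tested.

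The receptors for platelet-derived growth factor showed no separation. Pdgfra, the receptor of interstitial fibroblasts, read 2.58, 2.78 and 2.43 with corn oil and 2.18, 2.60 and 2.53 with carbon tetrachloride. The first treated rat was again the lowest, and the change was -0.16 ± 0.15, or -0.030 without that rat. Leaving out other single rats, or normexp background correction, gave -0.25 to -0.066. Pdgfrb, the receptor of pericytes and mesangial cells, read 0.69, 0.30 and 0.20 with corn oil and 0.20, 0.71 and 0.33 with carbon tetrachloride. Both groups covered the same range, and the change of 0.019 ± 0.19 (interval -0.44 to 0.48) turned sign under some settings.

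**Figure D3:**
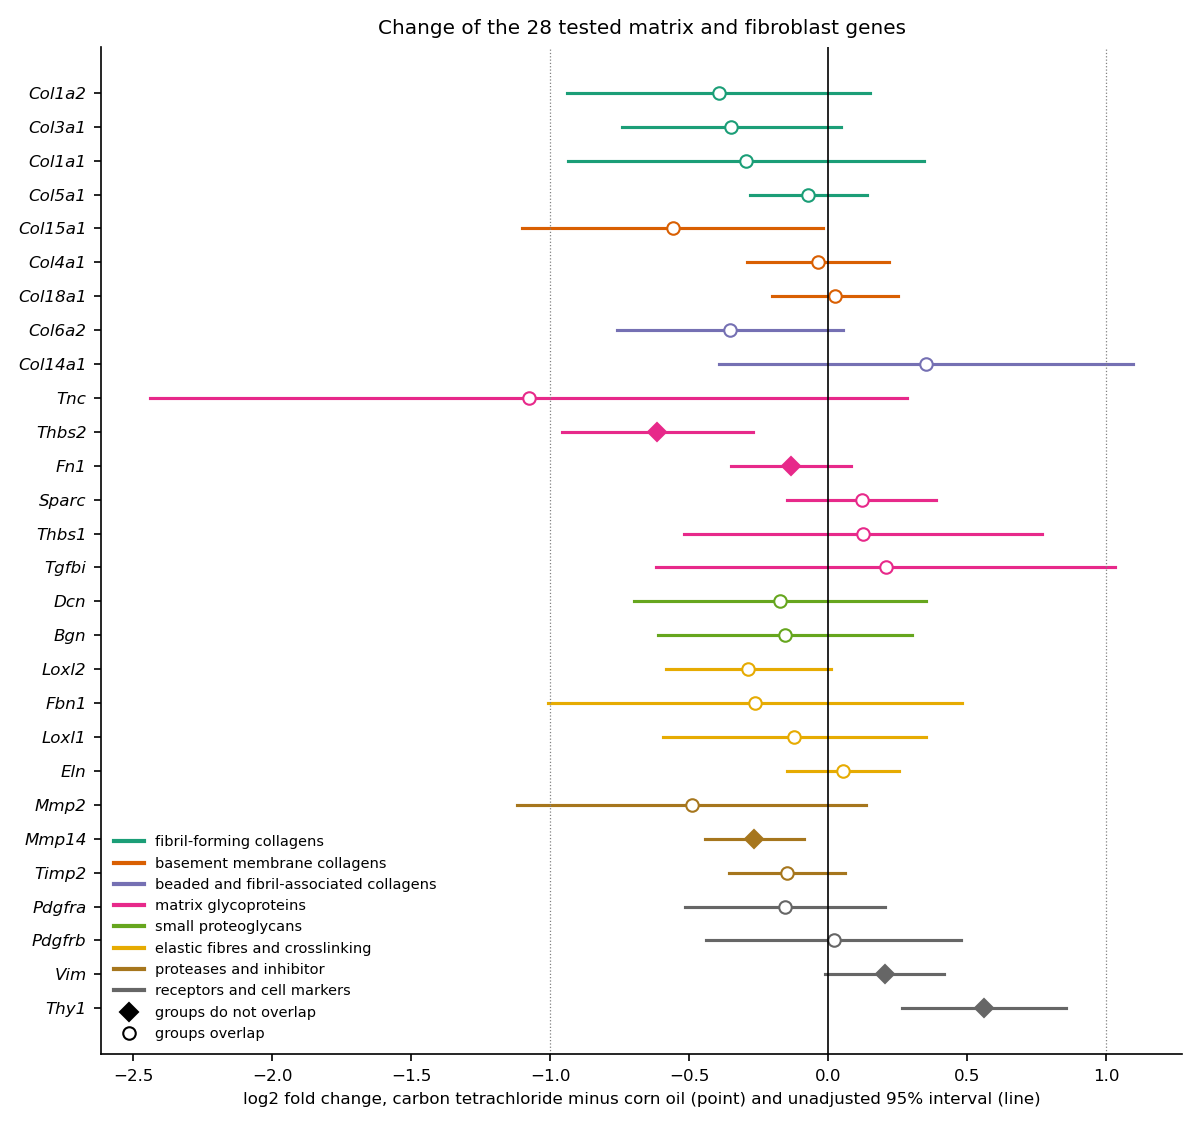
Log2 fold change of the 28 tested genes (points; filled diamonds where the groups did not overlap) with unadjusted 95% intervals (lines), coloured by class; dotted lines mark a 2-fold change. Of the 28 intervals, 22 lie within 2-fold either way, and those of Tnc, Col15a1, Mmp2, Fbn1, Col14a1 and Tgfbi reach past it.

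Each interval gives a range for the change of 1 gene, by its brightest probe in the main values. It does not cover differences between probes or between ways of processing. For 22 of the 28 genes the unadjusted 95% interval of the fold change lay within 2-fold either way, and it reached past 2-fold for Tnc, Col15a1, Mmp2, Fbn1, Col14a1 and Tgfbi. The standard errors of the 28 genes ran from 0.07 to 0.55 on the log2 scale with a median of 0.16, against a median of 0.11 for all transcripts. At the median the changes of these genes were thus measured less precisely than those of all transcripts.

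Most genes were read by more than 1 probe. Of 18 genes with 2 or more tested probes, 16 had all of them in 1 direction, and the probes of Col4a1 and Fn1 disagreed. Over the 52 tested probes of the list 34 were lower after carbon tetrachloride. When each of 42400 probes was tested alone in limma, 0 of the 52 passed, and 1 of all probes did. At an unadjusted p under 0.05 in that test there were 7 of the 52, both probes of Mmp14 among them. The share of all probes at that threshold was not counted. In the main test it was 6.3% of all transcripts. Probes of 1 gene on the same arrays share their RNA and are not independent.

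**Figure D4:**
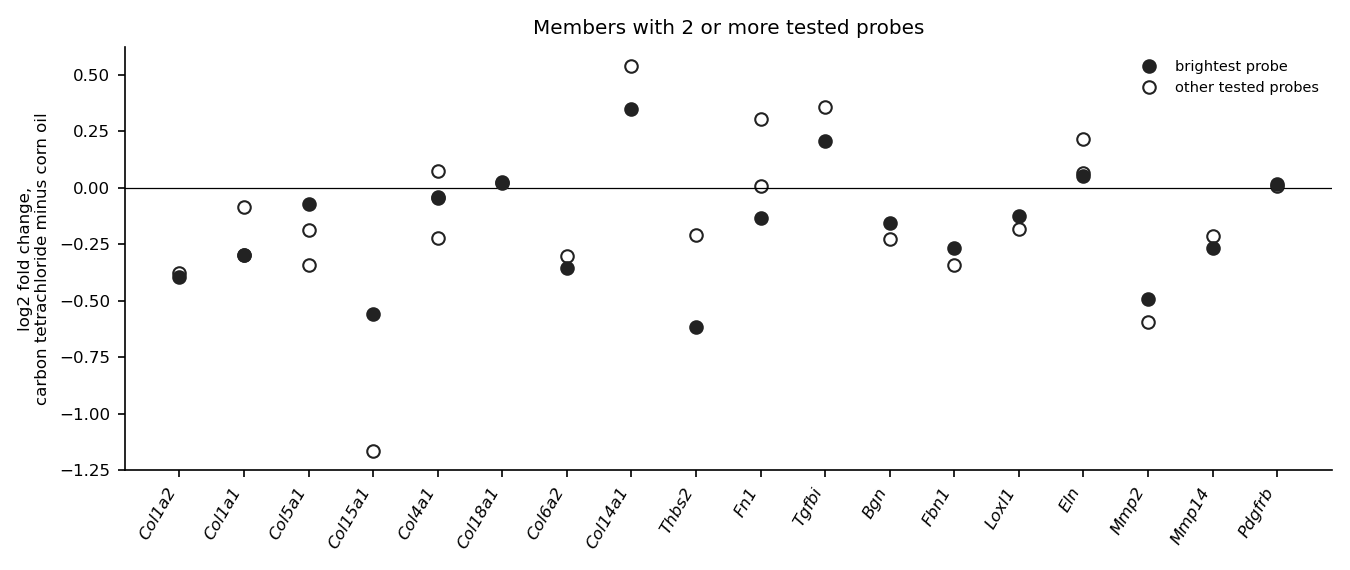
Log2 fold change of every tested probe of the 18 genes that had 2 or more, with filled points for the brightest probe and open points for the others. The probes of Col15a1 differ in size, at -0.56 and -1.17, and those of Fn1 and Col4a1 lie on both sides of 0.

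Other genes were read from 15 lists, of the matrix pathway and of markers of other cells. Of their 220 tested genes, 0 passed the adjusted threshold in limma in either direction, and at an unadjusted p under 0.05 there were 13 higher and 23 lower, 11 of the lower ones being T cell markers. The background at that threshold was 3.67% higher and 2.63% lower. Of the 220 genes, 9 entered the test through 1 group alone, so that the filter in part set their direction. The T cell markers Cd5, Cd3e and Cd2 are among these 9 and among the lower ones. Counts at that threshold without the 9 were not made. Of the other 211 genes, 112 were higher and 99 lower. Groups did not overlap for 18 in each direction, against 7.54% of all transcripts higher and 5.27% lower. Collagens beyond the list had 5 of 11 means higher and 6 lower, with Col26a1 at -0.99 ± 0.18, Col11a1 at -0.72 ± 0.26 and Col8a1 at 0.33 ± 0.16. Genes of collagen folding and processing had 11 of 21 higher and a median of 0.017. P3h3, a relative of the prolyl 3-hydroxylases, was at -1.61 ± 0.56. It read 1.94, 1.92 and 1.33 with corn oil and -0.66, -0.39 and 1.40 with carbon tetrachloride. The third treated rat, on the second slide, thus lay among the controls. Crtap, a partner of prolyl 3-hydroxylase, was at 0.17 ± 0.07, and Sec23a, a coat protein for export of procollagen, at 0.27 ± 0.12.

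Other proteases and inhibitors had 15 of 24 means higher. Among them, Adam19 had a change of -0.65 ± 0.13 and Mmp23 one of 0.33 ± 0.08. Of the other glycoproteins and proteoglycans 14 of 32 were higher, with Smoc2 at -0.52 ± 0.19, the microfibril protein gene Mfap4 at -0.73 ± 0.26 and Egflam at -0.36 ± 0.13. Matrix receptors had 10 of 18 higher, with the fibronectin receptor chain Itga5 at 0.39 ± 0.10, the collagen uptake receptor Mrc2 at -0.35 ± 0.11 and the nephronectin receptor chain Itga8 at 0.31 ± 0.11.

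A list of ligands, receptors and signalling proteins linked to fibrosis had 10 of 19 higher and a median of 0.0084. Smad7, an inhibitor of transforming growth factor beta signalling, had 0.45 ± 0.15, Hgf, a growth factor for epithelium, -0.30 ± 0.12 and Smad4 0.21 ± 0.09. Since the list mixes inhibitors such as Smad7 with other genes, its median is no measure of fibrogenic signalling. Other fibroblast markers had 8 of 19 higher, with the transcription factor genes Tcf21 at -0.51 ± 0.16 and Gli1 at -0.74 ± 0.23 and the podoplanin gene Pdpn, also expressed by podocytes, at 0.39 ± 0.17. Smooth muscle markers had 6 of 7 higher and a median of 0.23, with Cnn1 at 0.40 ± 0.19, Myh11 at 0.26 ± 0.14 and Tagln at 0.23 ± 0.14. Cnn1 entered through the treated group alone, with 1 of 3 corn oil arrays well above background, and without it 5 of 6 were higher with a median of 0.18.

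Markers of other cells were read in the same way. Macrophage markers had 4 of 11 means higher and a median of -0.036, with Itgam at 1.06 ± 0.64, Aif1 at -0.25 ± 0.16 and Mrc1 at 0.26 ± 0.20. Itgam entered through the treated group alone, with 2 of 3 corn oil arrays well above background, and without it 3 of 10 were higher. Endothelial markers were led by Nos3, the endothelial nitric oxide synthase, at 0.40 ± 0.07, with the angiopoietin receptor Tek at 0.23 ± 0.08 and the VEGF receptor Flt1 at 0.19 ± 0.08. Podocyte markers included Magi2 at 0.38 ± 0.14 and Ptpro at 0.26 ± 0.13. Proximal tubule markers had a median of 0.053, with Ggt1 at 0.20 ± 0.12, Kap at 0.09 ± 0.08 and Slc22a8 at 0.08 ± 0.07. Adipose and capsule markers had 4 of 5 higher and a median of 0.061, with Retn at 0.67 ± 0.35, Cidec at 0.39 ± 0.27 and Adipoq at 0.06 ± 0.18. Retn entered through the treated group alone, with 2 of 3 corn oil arrays well above background, and without it 3 of 4 were higher with a median of 0.038.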

How the data were processed

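Renal cortex RNA of 6 rats was measured on single-colour Agilent arrays. Per the file headers, the spot intensity deposited by the authors was extracted with Agilent Feature Extraction 10.7.1.1 (10.7 per the submitters' processing notes), and the processed signal is a background-subtracted linear intensity. Spot flags in the same deposited files mark control spots, outliers and signal well above background. The deposited value table equals that signal divided by 1 factor per array (1015 to 1092), close to its 75th percentile. The columns' medians ran from 0.111 to 0.118, and scale, centring and direction are known from that match.

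For the main values, the log2 of the processed signal was taken and the 75th percentile of the same array subtracted. Control spots (1439) and outlier spots were left out. Probes entered the test when every array of 1 or both groups showed them well above background. Accessions were named through RefSeq (GRCr8), which matched 28206 of 61537 probes, and a gene was represented by its brightest tested probe. The test was that of limma 3.58.1, run in R 4.3.3 (two-sided, Benjamini-Hochberg over 31193 transcripts, threshold 0.05), tested on simulated data. No set test was run. All members are accounted for. Values on every array are given for 16 genes chosen for their role, where a probe was above background, and for the 10 of smallest p, and each other list is given by its 3 genes of smallest p, of which 2 genes are not reported here. Members and lists were chosen with earlier results of these data known. Replicates are biological per the design text, and each p-value rests on the variation among rats. The number of arrays limits the precision. The plan assumed mean spot signals, and the normexp alternative used median signals instead. Alternatives were other scalings, background corrections, filters and probe rules, the deposited table, trend and robust fitting, the replicate number or slide as a block, and leaving out each array.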

Additional observations from a re-analysis of the deposited data

How the results depend on the processing

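The count of members past an adjusted p of 0.05 in limma was 0 in all 16 alternatives and when every probe was tested on its own, a setting chosen after seeing the data. The median log2 fold change of the members ran from -0.22 to -0.019, the latter without carbon tetrachloride replicate 1, and 7 to 12 members lay above 0. Over all transcripts, the count of 1 was 0 with no filter on dim probes, with normexp, with the replicate block, the slide block, trend and robust fitting or the filter on all 6 arrays, and 0 to 2 without single arrays. The count of members with non-overlapping groups was 5, 3 with scaling to the median, 4 with the mean of probes and 7 with normexp. It was 6 to 15 without single arrays, where fewer samples separate more readily: 15 without corn oil replicate 3, 10 without carbon tetrachloride replicate 3 and 8 without carbon tetrachloride replicate 2. The fold change of Fn1 was 0.059 with the mean of its probes, and that of Pdgfrb -0.027 with normexp. Without single arrays Pdgfrb ran from -0.13 to 0.17, Col4a1 from -0.11 to 0.034 and Thbs1 from -0.17 to 0.32. Of the members not named so far, the sign also turned under some setting for Col18a1 (-0.05 to 0.07), Tgfbi (-0.16 to 0.51), Loxl1 (-0.29 to 0.042) and Bgn (-0.29 to 0.037). Using slide as a block amounts to leaving out the third treated rat, and gave a median of -0.20. Replicate numbers showed no pairing (correlations of deviations -0.02, -0.10 and -0.08), and with the replicate number as a block the member median was -0.15. Thy1 kept a positive fold change (0.27 to 0.67), and Thbs2 (-0.74 to -0.40) and Mmp14 (-0.31 to -0.23) a negative one in every setting. Signal over background limits Postn, Lum, Cthrc1 and Tnc. Thy1 and Thbs1, each read by 1 probe, were well above background on all 6 arrays but dim, with corn oil means of -4.53 and -4.63.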
